A study of Homo sapiens with 12 samples.

Results

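The genes described here were picked by their probes. Each of these probes had no detectable signal in NT2/D1 control cells and a detectable one after 3 days of low-dose 5-aza deoxycytidine (5-aza). For 20 of the genes, another probe was detected on all 3 control arrays. NT2/D1 is an established human cell line of embryonal carcinoma, the pluripotent form of testicular germ cell tumour. Expression was measured on 12 Illumina HumanHT-12 v4 bead arrays, 3 in each of 4 groups: control cells, cells given 10 nM 5-aza for 1 day, cells given 10 nM 5-aza for 3 days with fresh drug each day, and cells exposed to 0.5 µM cisplatin for 6 hours and harvested after 24 hours without drug. All groups are the same wild-type line, and the sources differ on whether the controls received vehicle or no treatment. The series calls its samples biological triplicates. No source used here says whether these were separate cultures, so the p-values below measure the spread between these arrays, which may be partly technical.

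A probe was a member if it carried 1 gene symbol, had a detection p-value of 0.05 or more on all 3 control arrays and had one under 0.05 on all 3 arrays of the 3 day group. The detection p-value compares a probe with the negative control beads of its own array. The rule found 182 member probes, from 178 genes, among 30112 probes with 1 symbol. Of these named probes, 15575 (from 11663 genes) were undetected on all 3 control arrays. The same rule applied to the other treatments found 42 probes gained after 1 day of 5-aza and 95 gained with cisplatin, and in the opposite direction 198 probes detected in all controls were undetected on all 3 arrays after 3 days. Since the members were chosen by their detection p-values on the 3 day and control arrays, their values in those groups are given as a description, with no test. As background, 6.99% of all probes tested were called higher after 3 days. The share among the members was largely fixed by the rule and is not given as a result.

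5-aza is a cytosine analog that is built into DNA during replication and traps the DNA methyltransferases, so that methylation of CpG sites is lost as the cells divide. CpG methylation at a promoter is a mark of stably silent genes, and demethylating agents are known for re-expressing germline, immune and tissue-restricted genes in cancer cells. Embryonal carcinoma cells resemble pluripotent cells of the early embryo, hold high levels of the methyltransferase DNMT3B and have an intact p53 pathway, which cisplatin, a DNA crosslinking drug, activates.

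Promoter sequence is shown for 6 members with a single annotated start, because CpG sites are where 5-aza acts. The member probes of these genes also show the main patterns described below. These are large gains with and without a cisplatin signal, a low signal already present after 1 day, and the interferon response. Each sequence holds the 250 bases before the start in RefSeq (GRCh38.p14), 5′ to 3′ on the strand of the gene. Capitals mark CpG in the first 5.
GDF15, plus strand, chr19:18385908-18386157: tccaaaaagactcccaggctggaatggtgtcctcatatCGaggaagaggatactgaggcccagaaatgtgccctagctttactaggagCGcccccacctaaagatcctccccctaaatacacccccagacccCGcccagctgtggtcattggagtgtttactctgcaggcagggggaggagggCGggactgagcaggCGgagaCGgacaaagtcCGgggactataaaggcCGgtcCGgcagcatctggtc
BGN, plus strand, chrX:153494730-153494979: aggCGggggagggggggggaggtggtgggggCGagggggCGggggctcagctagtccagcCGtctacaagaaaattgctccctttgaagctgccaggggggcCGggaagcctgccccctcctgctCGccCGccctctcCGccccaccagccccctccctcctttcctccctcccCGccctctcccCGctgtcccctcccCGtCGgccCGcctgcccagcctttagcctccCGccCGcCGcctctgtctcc
S100A4, minus strand, chr1:153545807-153546056: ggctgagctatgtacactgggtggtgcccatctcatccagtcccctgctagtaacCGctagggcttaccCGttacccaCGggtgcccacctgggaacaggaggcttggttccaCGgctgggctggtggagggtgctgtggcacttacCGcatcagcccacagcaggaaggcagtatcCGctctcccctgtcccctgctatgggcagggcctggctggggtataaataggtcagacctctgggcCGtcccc
SHD, plus strand, chr19:4279016-4279265: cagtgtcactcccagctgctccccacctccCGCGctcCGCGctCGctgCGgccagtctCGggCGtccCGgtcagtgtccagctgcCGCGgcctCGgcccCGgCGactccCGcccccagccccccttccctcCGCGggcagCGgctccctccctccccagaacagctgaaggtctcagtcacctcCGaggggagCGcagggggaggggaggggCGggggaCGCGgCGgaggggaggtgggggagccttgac
KIFAP3, minus strand, chr1:170074696-170074945: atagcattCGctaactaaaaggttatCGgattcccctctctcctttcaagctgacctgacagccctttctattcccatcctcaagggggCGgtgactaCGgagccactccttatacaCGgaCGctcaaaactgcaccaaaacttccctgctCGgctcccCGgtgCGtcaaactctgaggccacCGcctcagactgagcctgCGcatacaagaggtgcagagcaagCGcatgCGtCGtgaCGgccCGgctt
In the last sequence, capitals mark the core of the interferon stimulated response element (GAAA, any 2 bases, GAAA), searched on both strands.
ISG15, plus strand, chr1:1013247-1013496: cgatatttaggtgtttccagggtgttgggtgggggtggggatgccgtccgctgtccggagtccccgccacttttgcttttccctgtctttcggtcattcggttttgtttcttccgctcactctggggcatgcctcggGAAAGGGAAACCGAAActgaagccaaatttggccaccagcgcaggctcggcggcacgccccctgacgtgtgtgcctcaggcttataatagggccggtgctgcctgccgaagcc

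The number of CpG sites in these windows ran from 7 for S100A4 and 9 for GDF15, through 16 for both BGN and KIFAP3 and 17 for ISG15, to 24 for SHD. Over all 35116 promoter entries of the RefSeq table, windows of the same length held a median of 11 CpG sites, with quartiles of 3 and 23. The 6 windows thus spanned from below the median to above the upper quartile. The GDF15 and S100A4 windows each held 1 match to TATAAA on either strand, a motif found in 10.7% of all entries. The ISG15 window held 2 overlapping matches to the interferon stimulated response element core, which 3.02% of all entries contained. A promoter entry was found for 132 of the 178 member genes (74.2%), too few for a comparison of CpG content between the members and other genes, so that comparison was void. The array data do not measure methylation.

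The gains ranged from strong to marginal. Where a probe was undetected, each control array was set to its floor, the lowest normalized signal among the probes detected on that array, and the ratio is given as a lower bound ("at least"). The bound had a median of 1.57-fold over the 182 probes, from 1.10-fold to 9.76-fold. It reached 2-fold for 56 probes and 4-fold for 6, and was under 1.5-fold for 80. For 127 probes all 3 arrays of the 3 day group lay above the other 9 arrays. The rule itself favoured this, and the share over all probes was not computed, so nothing is read from the count. The 3 members just inside the detection threshold on the 3 day arrays were SYNJ1 and SEC14L1, with a highest detection p of 0.0494, and COL6A3, with 0.0481. The 3 probes just outside were SIL1 at 0.0507 and SMC4 and ARMC12 at 0.0520. On the control side, HAVCR2, COL6A3 and a probe of STMN2 had a lowest detection p of 0.0507. ASGR1 and another probe of KANK4, at 0.0481, and TIAM1, at 0.0455, fell outside, although ASGR1 had a difference of 2.62 on the log2 scale between 3 days and control. The probes beside the threshold thus included both small and large differences.

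The 12 members with the largest bound belonged to several tissues and functions. Below, values are normalized log2 intensities given array by array. GDF15, a secreted ligand of the transforming growth factor β superfamily induced by p53 and by cell stress, was at 5.67, 5.35 and 5.56 in controls and at 9.49, 9.68 and 9.71 after 3 days, at least 9.76-fold higher. After 1 day of 5-aza it was at 5.53, 5.41 and 5.42, and with cisplatin at 8.65, 8.75 and 8.76. The 1 day arrays overlapped the controls, and the cisplatin arrays lay below the 3 day arrays and above all others.

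ADGRG1 (GPR56), an adhesion G protein-coupled receptor, was at 5.75, 5.48 and 5.65 in controls, 6.50, 6.21 and 6.28 after 1 day, 9.08, 9.05 and 9.15 after 3 days and 7.05, 6.59 and 6.75 with cisplatin. Its 4 groups did not overlap, and the bound was 6.75-fold. PLA2G2A, a secreted phospholipase A2, was at 6.22, 6.32 and 5.86 in controls, 6.10, 6.46 and 6.30 after 1 day, 8.86, 8.82 and 9.06 after 3 days and 6.15, 6.30 and 5.85 with cisplatin, so that only the 3 day arrays stood apart. BGN encodes biglycan, a proteoglycan of the extracellular matrix. It was at 6.08, 5.79 and 6.08 in controls, 6.36, 6.30 and 6.12 after 1 day, 8.77, 8.92 and 9.06 after 3 days and 6.95, 7.21 and 6.37 with cisplatin, with both other treatments above the controls.

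For the member probes of several of the rest, only the arrays of the 3 day group were high. SH2D3C, an adaptor protein of lymphocyte signalling, was at 8.58, 8.70 and 8.70 after 3 days and between 5.45 and 5.76 on the other 9 arrays, at least 5.00-fold over control. S100A4, a calcium-binding protein of motile and mesenchymal cells, was at 8.32, 8.59 and 8.46 after 3 days and between 5.31 and 6.04 elsewhere, at least 4.33-fold. CCR7, the chemokine receptor that guides lymphocytes to lymph nodes, was at 8.31, 8.39 and 8.16 after 3 days and between 5.07 and 5.28 elsewhere, at least 3.85-fold. None of these 3 member probes was detected on any of the 6 arrays of the 1 day and cisplatin groups. Both other SH2D3C probes were undetected on all 12 arrays, with differences between 3 days and control of -0.11 and 0.16 on the log2 scale. The other S100A4 probe was detected on all 12 arrays. Its means were 7.36 in controls, 7.63 after 1 day, 10.06 after 3 days and 6.93 with cisplatin.

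The stathmins STMN2 and STMN4, neuronal proteins that destabilize microtubules in growing neurites, were gained with bounds of 3.62-fold and 3.45-fold, and neither of these probes was detected on the 1 day or cisplatin arrays. SHD, an SH2 domain adaptor, reached 8.22, 8.16 and 8.29 after 3 days from 5.85, 5.90 and 6.08. KIFAP3, the non-motor subunit of the kinesin-2 complex, reached 8.10, 8.13 and 8.10 from 6.00, 6.07 and 6.15, and was the only one of the 12 detected on all 3 1 day arrays. SHFL, an interferon-induced inhibitor of ribosomal frameshifting, reached 8.11, 8.20 and 7.94 from 5.48, 5.51 and 5.63. Of the 12 probes, 5 were undetected on all 6 arrays that the rule did not use.

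**Figure D1:**
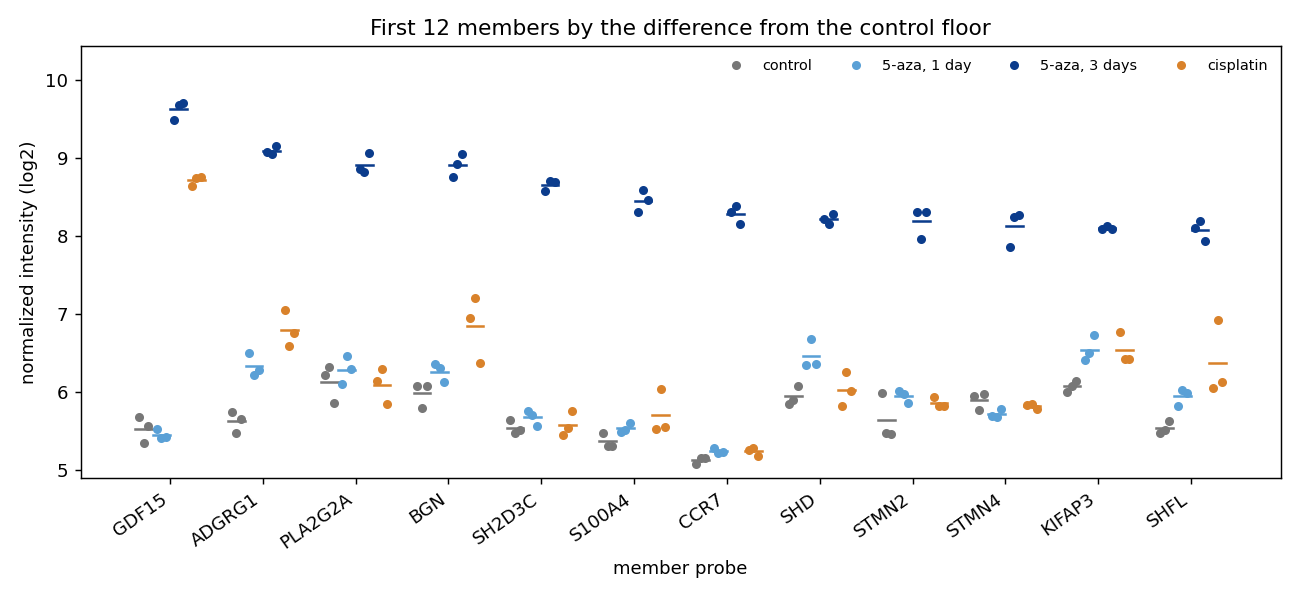
Normalized log2 intensity of the 12 members with the largest bound, with 1 point per array, a short line at each group mean and colours for the 4 groups. The 3 day arrays lie above all other arrays for each of the 12 probes, and the cisplatin arrays of GDF15, between 8.65 and 8.76, come nearest to them.

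Some facts of the arrays bear on the comparisons that follow. All 12 arrays share 1 chip, on which each group fills neighbouring positions, and position and group cannot be told apart. Between 15435 and 19824 of 47231 probes were detected per array. Replicates correlated at 0.986 to 0.993 in the control and 5-aza groups and at 0.928 to 0.960 among the cisplatin arrays, whose median SD was 0.34 on the log2 scale, against 0.13 to 0.18 in the other groups. Leaving out cisplatin replicate 1 raised the number of probes called between 1 day of 5-aza and cisplatin from 196 to 5510. The shares of members detected, called or not overlapping with cisplatin are therefore also given without that array. It was picked after its effect on the calls was seen, so these shares are not a corrected version of the data. Cisplatin replicate 1 correlated at 0.960 with replicate 2 and at 0.928 with replicate 3, and replicates 2 and 3 correlated at 0.955. The patterns of detection across treatments, the comparisons of group means and the counts by gene class use all 3 cisplatin arrays only. Of 13 embryonal carcinoma markers measured, 11 were detected on all arrays in every group, and TERT and ZFP42 were undetected throughout. Their summed level was 72810 to 74523 in controls, 56028 to 60721 after 3 days and 54804 to 73412 with cisplatin. In bulk RNA, fewer cells of a type and less RNA per cell cannot be told apart.

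The first question was whether the genes gained by day 3 already had a signal on the 6 arrays that the rule did not use. After 1 day of 5-aza, 73 members (40.1%) were detected on at least 1 array, against 4.93% of all named probes undetected in controls, and 18 (9.89%) were detected on all 3, against 0.27%. With cisplatin, 106 members (58.2%) were detected on at least 1 array, against 13.9%, and 31 (17%) on all 3, against 0.61%. Either treatment gave a detection for 123 members (67.6%), against 16.3%. Without cisplatin replicate 1, 101 members (55.5%) were detected on at least 1 of the remaining cisplatin arrays, against 13%, and 52 (28.6%) on both, against 2.95%. Either treatment then gave a detection for 121 members (66.5%), against 15.6%. These background shares come from probes that were also undetected on the same controls, and they include the members. Members had to be detected on 3 arrays of the series and the other probes did not, which by itself favours more detections among members. These shares are therefore descriptions, and nothing is read from them against the background. Cisplatin arrays 1, 2 and 3 detected 47, 73 and 80 members, and 16318, 17146 and 19824 probes in all, while the 1 day arrays detected 37, 54 and 41 members.

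Detection in the 2 other treatments overlapped in part. Of the 182 probes, 59 were undetected on all 6 arrays, 56 had at least 1 detection in each treatment, 50 were detected with cisplatin and on no 1 day array, and 17 were detected at 1 day and on no cisplatin array. Detection on all 6 arrays was found for 9 probes. These patterns were not counted over the other probes. Of the 59 undetected probes, 21 had a bound of at least 2-fold after 3 days, so absence from the other treatments was not limited to marginal gains.

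**Figure D2:**
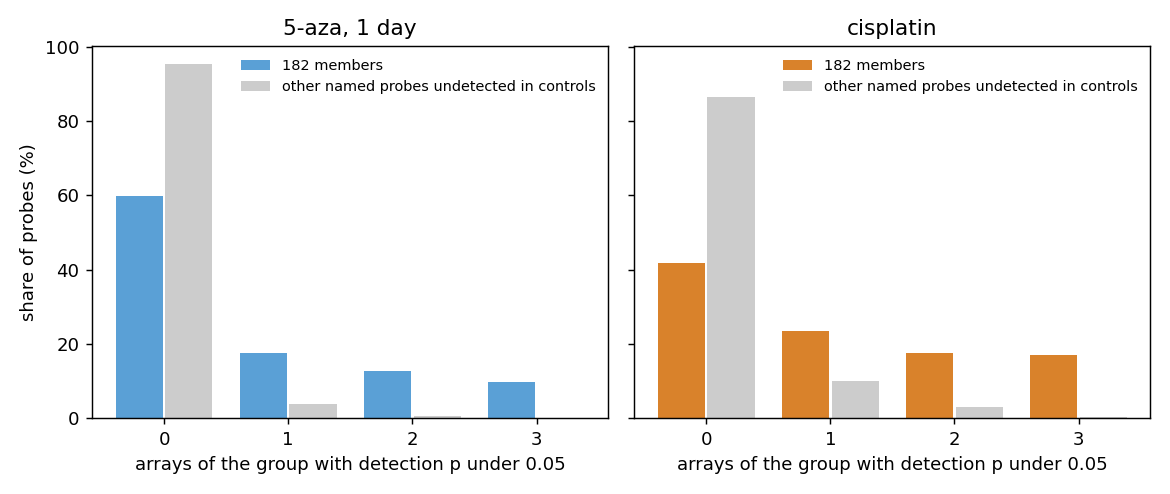
Share of probes, in percent, by the number of arrays of the 1 day 5-aza group (left) or the cisplatin group (right) with a detection p under 0.05, for the 182 members (coloured) and the other named probes undetected in controls (grey). Of the members, 18 were detected on all 3 1 day arrays and 31 on all 3 cisplatin arrays.

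The contrast of 1 day 5-aza against cisplatin compares 2 groups that did not choose the members. Normalization and fit used all 12 arrays. The spread behind each p-value thus also draws on the control and 3 day arrays, which chose the members. Across all 19293 probes detected on at least 3 of the 12 arrays, limma called 0.342% higher after 1 day and 0.674% lower, and among the members it called 2 (1.10%) higher and 7 (3.85%) lower. The members' median difference was 0.01 on the log2 scale, against 0.05 over all probes. Without cisplatin replicate 1, 6 members (3.30%) were higher and 24 (13.2%) lower, against 15.4% and 13.2% of all probes, and all 9 members called before were among them. With only the 6 compared arrays in the fit, 2 members (GDF15 and ACTA2) and 0.0311% of all probes were called. All members entered the fit through their 3 day arrays and 59 of the 182 were undetected on all 6 arrays compared here, so these shares are descriptions and nothing is read from them against the background.

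The 7 members lower after 1 day than with cisplatin were led by GDF15, described above, with at least a 5.12-fold difference (log2 difference -3.27, SE 0.14, limma adjusted p = 6.45e-08). ACTA2, smooth muscle actin and also a p53 target, was between 5.57 and 5.61 after 1 day and at 8.49, 8.64 and 7.95 with cisplatin, and was at least 3.98-fold lower (adjusted p = 5.07e-06). In controls it was at 5.48, 5.38 and 5.66 and after 3 days at 6.90, 6.55 and 6.83, so its cisplatin arrays were the highest. FOSL1, the AP-1 subunit Fra-1, was at 6.22, 6.13 and 6.25 after 1 day, 8.24, 7.64 and 8.81 with cisplatin and 7.71, 7.83 and 7.10 after 3 days, at least 3.64-fold lower (adjusted p = 0.00200).

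VWCE, a secreted protein with von Willebrand factor C and EGF domains, was at 6.08, 6.37 and 6.26 after 1 day, 7.72, 8.82 and 7.95 with cisplatin and 6.94, 6.76 and 6.96 after 3 days (log2 difference -1.92, adjusted p = 0.00200). The remaining 3 were CFD, the complement protease factor D (at least 1.79-fold, adjusted p = 0.00136), TAP1, which carries peptides to MHC class I (at least 1.16-fold, adjusted p = 0.00600), and CREB5, a CRE-binding transcription factor (at least 1.10-fold, adjusted p = 0.0301). For all 7 the 1 day and cisplatin arrays did not overlap. Without cisplatin replicate 1 the limma adjusted p was 9.13e-08 for GDF15, 4.01e-06 for ACTA2, 6.44e-05 for VWCE, 7.82e-05 for CFD, 0.000342 for FOSL1, 0.000336 for TAP1 and 0.00608 for CREB5. The call of CREB5 was lost under 11 of 23 alternative settings. Over the members, 30 (16.5%) had 1 day arrays wholly below the cisplatin arrays, against 8.13% of all probes, and 17 (9.34%) wholly above, against 12.3%. Without cisplatin replicate 1 these counts were 44 (24.2%), against 20.8%, and 36 (19.8%), against 28.2%.

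Both members called higher after 1 day, ARL9 and AMHR2, had signals at or near background in both groups, so their values are given without a fold or a p-value. ARL9, of the ADP-ribosylation factor-like family of small GTPases, was at 6.34, 6.36 and 6.05 after 1 day and 5.54, 5.32 and 5.26 with cisplatin. It was detected on 1 of these 6 arrays, and its call was lost under 11 of 22 alternative settings. AMHR2, the receptor for anti-Müllerian hormone, was at 6.27, 6.20 and 5.91 against 5.38, 5.35 and 5.50 and was detected on none of them, and its call was lost under 17 of 23. LIX1L was the one member detected on all 3 1 day arrays and on no cisplatin array. Its values were 6.97, 6.66 and 6.89 against 6.16, 6.13 and 6.03, at least 1.48-fold higher with adjusted p = 0.0611, and adjusted p = 0.0104 without cisplatin replicate 1.

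**Figure D3:**
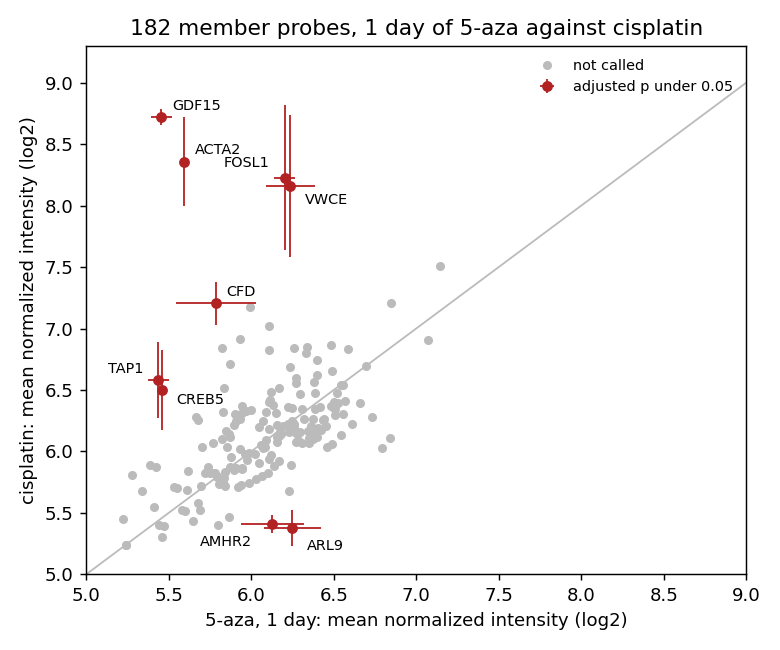
Mean normalized log2 intensity of the 182 member probes with cisplatin (vertical axis) against 1 day of 5-aza (horizontal axis), the grey line marking equal values. Red points with SD bars are the 9 members with a limma adjusted p under 0.05, of which 7 lie above the line and 2, ARL9 and AMHR2 with signals at or near background in both groups, below it.

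The remaining contrasts share the control arrays that chose the members, so members start from low control values by choice. Counts and bounds in these contrasts are descriptions, and no p-value of a single member is given. For 1 day against control, limma called no probe at all (0% of probes in each direction). At an unadjusted p under 0.05, 27 members (14.8%) were higher and none was lower, against 2.71% and 2.25% of all probes. The 1 day arrays lay wholly above the controls for 54 members (29.7%), against 12.4% of all probes, and wholly below for 4 (2.20%), against 9.25%. The median difference was 0.15 over the members and 0.01 over all probes.

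GPER1, a G protein-coupled estrogen receptor, was at 5.59, 5.47 and 5.81 in controls, 7.13, 7.10 and 6.98 after 1 day, 7.43, 7.30 and 7.42 after 3 days and 6.78, 7.45 and 6.49 with cisplatin. The 1 day signal was at least 1.66-fold over control, with no overlap. Other members detected on all 3 1 day arrays included MUC1, an epithelial mucin (7.03, 7.29 and 7.11, against 6.20, 6.03 and 6.25 in controls), SIPA1, a GTPase-activating protein for Rap (6.64, 6.80 and 7.11, against 5.85, 6.03 and 6.13), and ARRDC2, an arrestin domain protein (7.17, 6.59 and 6.63, against 6.23, 5.99 and 6.12). Their bounds over control were 1.74-fold, 1.42-fold and 1.37-fold. For 19 members the 1 day mean was nearer the 3 day mean than the control mean. NFKBIE, an inhibitor of NF-κB, and GPRC5C, an orphan receptor, were the only members with a 1 day mean above the 3 day mean.

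Cisplatin against control called 13 members (7.14%) higher and none lower, against 0.601% higher and 0.207% lower among all probes. Without cisplatin replicate 1, 38 members (20.9%) were higher and 1 (0.549%), RFESD, was lower, against 10.9% and 13.3% of all probes, and all 13 were among the 38. Leaving out control replicate 1, 2 or 3 instead cut the count to 7, 7 and 8. The median difference was 0.20 over the members and -0.04 over all probes. GDF15 (at least 5.21-fold), ACTA2 (at least 4.05-fold), FOSL1 (at least 3.70-fold) and VWCE (at least 3.53-fold) had the largest bounds. CFD, at 5.63, 5.38 and 5.74 in controls and 7.01, 7.28 and 7.33 with cisplatin, was at least 1.82-fold higher.

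TP53INP1, a p53 target that acts in apoptosis and autophagy, was at 8.19, 6.70 and 6.64 with cisplatin, against 5.73, 5.55 and 5.85 in controls (at least 1.79-fold). Its first cisplatin array stood far above the other 2, and without that array the log2 difference was 0.96 in place of 1.47. Its call was lost under 16 of 23 alternative settings. Another TP53INP1 probe was detected on all 12 arrays. The means of that probe were 6.94 in controls, 7.18 after 1 day, 7.79 after 3 days and 8.04 with cisplatin. The other 7 called members were INPP1, GPER1, ADGRG1, ITGA3, TAP1, CREB5 and ISG15, with bounds between 1.10-fold and 1.61-fold. For 12 members the cisplatin mean exceeded the 3 day mean, among them ACTA2, FOSL1, VWCE, CFD and TP53INP1. Over the members, 51 (28.0%) had cisplatin arrays wholly above the controls, against 6.24% of all probes, and 2 (1.10%) wholly below, against 9.29%. Without cisplatin replicate 1 these counts were 72 (39.6%), against 17.6%, and 12 (6.59%), against 24.7%.

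By gene class, the members were spread thinly. Of 11663 genes with a probe undetected in controls, 1.53% were gained. In these counts of genes, a gene is undetected if at least 1 of its probes was. Another probe of the same gene may have been detected in controls. In 15 class lists, 47 of the 178 member genes fell in at least 1 list and 131 in none, so most gains lay outside the classes tested. The counts below are descriptions with no test, and a gene can be in several lists.

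The matrix list, which includes the calcium-binding S100A4, had the largest count. Of its genes with a probe undetected in controls, 10 of 106 (9.43%) were gained. They were BGN, S100A4, COL13A1, a transmembrane collagen (5.75, 5.63 and 5.47 in controls, 7.49, 7.13 and 7.50 after 3 days, at least 2.05-fold), EFEMP2, an elastic fibre glycoprotein (at least 1.77-fold), SPOCK2, COL23A1, COL6A3, BCAN, ECM1 and FBLN5. Of these 10 probes, 2 were detected on any 1 day array and 6 on any cisplatin array, against 40.1% and 58.2% of all members. BGN with cisplatin was at least 1.42-fold over control. Of 12 fibroblast markers, 4 were detected on all controls and 5 on all 3 day arrays. Their summed level was 3012 to 3355 in controls and 2366 to 2754 after 3 days, and LUM was undetected in every group. COL6A3 is on both lists.

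The p53 and DNA damage list gave 4 of 45 (8.89%): GDF15, ACTA2, TP53INP1 and GADD45B, a growth arrest gene at 5.92, 6.13 and 6.18 in controls, 7.39, 7.31 and 7.34 after 3 days and 6.74, 6.91 and 6.58 with cisplatin. All 4 had cisplatin arrays wholly above the controls, against 6.24% of all probes, and 3 of them were called higher, against 0.601%. None had 1 day arrays wholly above the controls, against 12.4%. The controls of these member probes were low by the rule, and another TP53INP1 probe was detected on all 3 control arrays. The call of TP53INP1 was lost under 16 of 23 alternative settings. These counts of a few genes are descriptions. In the integrated stress list, 2 of 20 genes were gained, GDF15 again and VEGFA, the angiogenic growth factor (6.15, 6.07 and 6.26 in controls, 6.80, 7.40 and 6.85 after 3 days). Among the secreted ligands, 5 of 136 were gained, the others being IGFBP1, a binder of insulin-like growth factors, RSPO2, which enhances WNT signalling, and FGF11.

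The interferon list gave 4 of 50 (8%). ISG15, a ubiquitin-like modifier whose promoter is shown above, was at 5.68, 5.77 and 5.67 in controls, 6.18, 6.08 and 6.10 after 1 day, 7.96, 8.01 and 8.07 after 3 days and 6.18, 6.77 and 6.48 with cisplatin. Both other treatments lay wholly above the controls, and ISG15 was called with cisplatin (at least 1.10-fold), a call lost under 14 of 23 alternative settings. IFI35 (at least 1.61-fold after 3 days), PARP9 (1.25-fold) and PML, the scaffold of nuclear bodies (1.16-fold), had smaller gains. Every other PML probe was undetected on all 3 day arrays. From antigen presentation only TAP1 of 23 undetected genes was gained, at 5.37, 5.31 and 5.38 in controls, 5.37, 5.49 and 5.45 after 1 day, 7.28, 7.42 and 7.06 after 3 days and 6.40, 6.94 and 6.41 with cisplatin. No HLA gene was among the members, out of 12 undetected in controls.

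Immune genes numbered 8 of 261 (3.07%): SH2D3C, CCR7, BCL6, a repressor of germinal centre B cells (5.79, 5.51 and 5.54 in controls, 7.71, 7.51 and 7.78 after 3 days), RAC2, the haematopoietic Rac GTPase (5.49, 5.24 and 5.46 against 7.52, 7.62 and 7.68), CFD, CD70, LCP1 and NFKBIE. BCL6 and RAC2 were undetected on all 1 day and cisplatin arrays, with bounds of 2.51-fold and 2.40-fold after 3 days. Of 11 blood cell markers measured, none was detected on all controls and 1 on all 3 day arrays. The latter was CD34, itself a member (at least 1.23-fold). Every other CD34 probe was undetected on all 3 day arrays, with differences from control of -0.01 to 0.27 on the log2 scale. CD3E, HBA1 and LYZ were undetected in every group, and the summed level was 704 to 817 in controls and 735 to 870 after 3 days.

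Neural and ion channel genes numbered 7 of 304 (2.30%): STMN2, STMN4, ASIC1, an acid-sensing channel (at least 1.80-fold), CACNA1I, a T-type calcium channel (1.44-fold), MBP, myelin basic protein (1.44-fold), P2RX2 and PVALB. Neuron markers detected on all 3 arrays numbered 5 of 10 in controls and after 1 day and 6 of 10 both after 3 days and with cisplatin, and ELAVL4, RBFOX3 and SNAP25 were undetected in every group. Their summed level was 6464 to 8838 in controls, 8907 to 9851 after 1 day, 9266 to 9831 after 3 days and 7027 to 10819 with cisplatin, and the part of neuron markers in the neural gains was not tested. The contractile list gave 3 of 85, CNN1 (calponin, at least 1.62-fold), TNNC1 (troponin C, 1.47-fold) and ACTA2. One endothelial marker, VWF, was itself a member (at least 1.57-fold), while CDH5 and PECAM1 were undetected in every group and the summed endothelial level was 1031 to 1128 in controls and 944 to 972 after 3 days.

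Other classes had few members or none, and at the overall share of 1.53% lists of their size would also hold few. The germline and cancer-testis list gave 1 of 141 (0.709%), SPANXB1, whose bound of 1.10-fold was the lowest of all members (6.15, 6.04 and 6.13 in controls, 6.41, 6.50 and 6.52 after 3 days). No MAGE gene of 28 undetected was a member. None of 51 imprinted genes was gained, and developmental transcription factors gave 2 of 223 (0.897%), FOXD2 (at least 1.48-fold) and IRX5 (1.31-fold), with none of 26 HOX cluster genes. No keratin of 48 and no cadherin or protocadherin of 76 was gained. The epithelial list gave MUC1 and GJA5, the lysosome list PLD1 and the redox list ABCC3. By RefSeq type, 166 of the member genes (93.3%) were protein coding, against 84.7% of the genes undetected in controls. Chromosome 19 held 25 of them (14.0%), against 6.81%, and the X chromosome 6 (3.37%), against 4.83%.

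**Figure D4:**
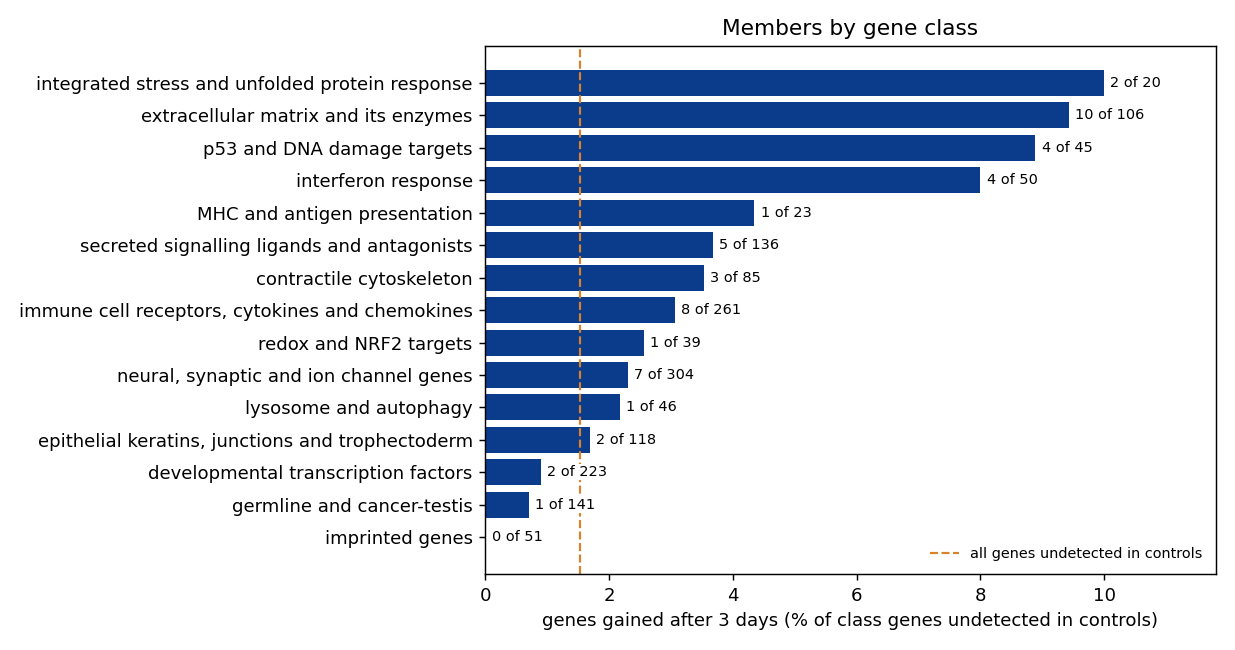
Genes gained after 3 days as a percentage of the genes of each class with a probe undetected in controls. The counts stand beside each bar. The dashed line marks 1.53%, the share over all genes with a probe undetected in controls. Developmental, germline and imprinted genes lie below it and matrix, p53, interferon and stress genes between 8% and 10%.

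A probe that is undetected does not mean that its gene was silent. For 79 of the 178 genes the array held another probe that was not a member, 135 in all, of which 75 were undetected on all 12 arrays. From 20 genes, 21 other probes were detected on all 3 controls. The difference between 3 days and control had a median of 0.59 on the log2 scale over these 21, was above 0 for 17 and was 1 or more for 7. ADGRG1 rose in its other probe from a mean of 6.99 to 9.76 and S100A4 from 7.36 to 10.06. Both other probes of ASMTL, an acetylserotonin methyltransferase-like gene, went from 9.25 to 11.24 and from 9.23 to 10.27. TOX2 (8.25 to 10.04), CREB5 (8.50 to 10.25) and TPD52L1 (up by 1.05) moved the same way. These values come from the rule's own groups and carry no test.

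Other genes differed between probes. BLTP3B's other probe was lower after 3 days by the mean (7.31 against 6.39), as were those of FAM86JP, ARRDC2 and PTP4A3 by 0.38, 0.20 and 0.17 on the log2 scale. One GPER1 probe outside the members was detected in all groups and stood at 6.84 in controls, 7.17 after 1 day, 6.99 after 3 days and 6.63 with cisplatin, a course unlike that of the member probe. A pair of member probes was found for each of 4 genes: STMN2, CREBRF, the antiviral deaminase APOBEC3G and PKD1L2. The second STMN2 probe was detected on 2 of the 1 day arrays and all 3 cisplatin arrays, while the first was detected on none of them.

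**Figure D5:**
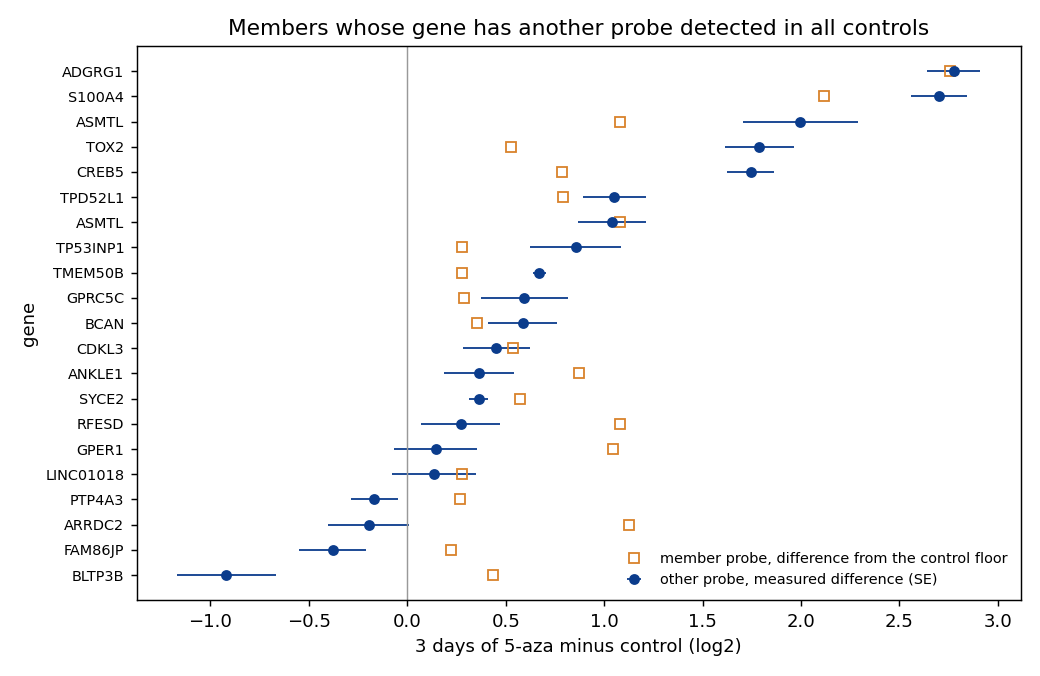
Difference between 3 days of 5-aza and control (log2) for 21 other probes, detected on all 3 controls, of 20 member genes (blue points, bars of 1 SE from 3 arrays per group), beside the bound of the same gene's member probe (open squares). ADGRG1 and S100A4 show large differences in both probes, and 4 probes, including that of BLTP3B at -0.92, lie below 0.

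Of 12 genes from the study's methylation and p53 analyses that were looked up here, GDF15 and GPER1 had a member probe. CDKN1A, GADD45A, IER3 and PPM1D, all p53 targets, were already detected on all controls by at least 1 probe. CD164L2, RIN1 and SOX15 were detected on at least 1 control array. PLK2 and TLR4 were undetected on all 12 arrays, and no TRIM54 probe was detected on any 3 day array.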

How the data were processed

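Total RNA from 12 NT2/D1 samples was labelled and hybridised to Illumina HumanHT-12 v4 arrays. The authors exported non-normalized probe intensity with a detection p-value per probe and array from GenomeStudio, and deposited a second table of quantile normalized intensity, used here as an alternative. The genome build behind the array is not given in the sources used here. Probe symbols came from the platform annotation, updated through Entrez IDs to RefSeq: 30112 of 47231 probes had 1 symbol, 8 had several and 17111 none. Intensity was background corrected by normexp through the detection p-values (offset 16), quantile normalized and log2 transformed in limma 3.58.1 (R 4.3.3). Probes detected on at least 3 of the 12 arrays (19293) entered 1 model of 4 group means, with p-values adjusted by Benjamini-Hochberg over all of them. All members passed this filter through their 3 day arrays. The number of arrays, 3 a group, limits the precision. The members, the class lists and marker lists were chosen with earlier results of these data known. Named genes are the 12 largest bounds, up to 4 a class, the called members (at most 6 a direction for cisplatin against control), those detected on all arrays of another treatment, those at the threshold, those with several probes and the study's own genes; others (for example LIX1L and RFESD) were named after their values were seen. The fit was tested on simulated data.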

Additional observations from a re-analysis of the deposited data

Results flagged for a closer look

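A signal appeared in probes that the comparisons above do not use. Outside the named probes, 36 probes without a single gene symbol in the annotation were undetected on all 3 control arrays and detected on all 3 arrays after 3 days. The same probes without names gave 19 gains after 1 day and 56 with cisplatin. The unnamed probe with the largest bound, ILMN_1747673, was at 5.79, 5.67 and 5.63 in controls and 7.93, 8.02 and 8.38 after 3 days, at least 3.41-fold higher, and was at 6.24, 6.33 and 6.52 after 1 day.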

How the results depend on the processing

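The count of members rested on the detection threshold: a detection p under 0.01 after 3 days with 0.05 or more on controls left 108 probes, and 0.01 on both sides gave 180. Leaving out 1 array of the rule gave 203 to 248 probes. For 1 day 5-aza against cisplatin, leaving out 1 array gave 6 to 30 called members in place of 9, the highest without cisplatin replicate 1. For cisplatin against control it gave 7 to 39 in place of 13, with 7 without control replicate 1 or 2, 8 without control replicate 3 and 39 without cisplatin replicate 1. For 1 day against control it gave 0 to 1 in place of 0, the 1 being GPER1 without cisplatin replicate 2 or 3. Fitting only the 6 arrays compared gave 2 members for 1 day against cisplatin, 1 for 1 day against control (GPER1) and 2 for cisplatin against control, with fewer arrays to estimate the spread. Array weights gave 24, 4 and 28. Leaving out replicate 3 of every group, chosen after seeing the data, gave 4, 0 and 6. Median scaling, cyclic loess, no background correction, the deposited values, the other filters and an offset of 50 kept the 3 counts within 7 to 11 (6 with the offset), 0, and 10 to 17. No member that was called reversed its direction under any alternative. GDF15 and ACTA2 stayed called under all 23 alternatives in both cisplatin contrasts. AMHR2 lost its call in 17, ARL9 in 11 of 22 and CREB5 in 11 against cisplatin, and TP53INP1 lost its call against control in 16 and ISG15 in 14. For 1 day against cisplatin, no member was called higher under 11 of 23 alternatives, in place of 2 of 9, among them an offset of 50 and the replicate block (both 0 higher and 6 lower), the 6 arrays alone and leaving out any 1 day array. The replicate numbers did not pair the samples (correlations of same-numbered deviations from -0.45 to 0.20). With the replicate block, 6, 0 and 9 members were called. The cause of these changes was not tested. Arrays with 3 samples a group and signals near background limit all values under about 6.45, the highest floor on the log2 scale.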
